A study of Mus musculus with 12 samples.

Results

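Total cytoplasmic RNA was compared between activated CD4 T cells that lack Rnmt and control cells, in 6 of the 12 libraries of the study: 3 control and 3 Rnmt cKO libraries, chosen by genotype and by library kind. The other 6 libraries hold ribosome-protected fragments (RPF) of the same 2 genotypes and are used here as a second readout. Control mice carried Rnmt fl/fl alleles, with loxP sites around exon 3, and Rnmt cKO (conditional knock-out) mice carried the same alleles together with CD4-Cre, a transgene that deletes at the double-positive stage of thymic development, so that the mature T cells of these mice had lacked the gene since the thymus. All mice were female and on the C57B6/J background, and their ages are not given in the sources used here. Naive CD4 T cells were isolated from lymph nodes and activated for 20 h on plates coated with anti-CD3 (5 ug/ml) and anti-CD28 (1 ug/ml), antibodies that engage the T cell receptor and its costimulatory partner CD28, and both genotypes received 0.1 mg/ml cycloheximide for 1 min before lysis. The libraries are numbered as replicates 1 to 3 of their group. Whether equal numbers mark libraries of the same mouse, litter or day is not given in the sources used here.

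RNMT is the enzyme that methylates the guanosine cap of RNA polymerase II transcripts at the N-7 position, which completes the cap and allows the cap-binding proteins that act in splicing, export, translation and decay to hold it. When a naive T cell is triggered through its receptor it leaves quiescence, first transcribes immediate early genes and NF-kB targets, then cytokines and their receptors, and raises its metabolism in preparation for division. The comparison asks which RNA programs other than those of the ribosome, of mitochondrial oxidation and of Myc stood higher or lower in the cytoplasm of cells without Rnmt after this stimulus.

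The gene counts of a library summed to 19056917, 18915961 and 19111659 in the controls and to 15079703, 18803007 and 22629563 in Rnmt cKO. Rnmt itself stood at 95.5, 94.1 and 94.3 counts per 1000000 gene counts (CPM) in the controls and at 29.3, 32.4 and 30.4 CPM in the Rnmt cKO libraries (log2 fold change -1.62 ± 0.06 SE, adjusted p = 5.8e-06), so every library fitted its label. Of 11519 genes that exceeded 1 CPM in at least 3 of the 6 libraries, 3024 were increased (26.3%) and 3220 were decreased (28.0%) in Rnmt cKO at an adjusted p below 0.05, with a median log2 fold change over all genes tested of 0.00. More than 2-fold, 681 genes were increased (5.91%) and 570 were decreased (4.95%). The 3 libraries of one genotype did not overlap with those of the other for 7174 genes (62.3%). Since 54.2% of the genes passed the test, the counts of each gene group are given beside these shares, and a group with shares near them does not stand apart from the other genes. Values written as x ± y SE are log2 fold changes with their standard error, and n = 3 in each genotype. CPM are shares of the sequenced RNA, and in such bulk samples fewer cells of a type and less RNA per cell cannot be told apart.

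Libraries of one genotype correlated at Pearson's r of 0.985 to 0.994 over the log2 CPM of all genes tested, and libraries of different genotypes at 0.940 to 0.961. The share of uniquely aligned reads that were assigned to no gene also differed, at 8.97, 9.40 and 9.54% in the controls and 12.4, 11.9 and 11.3% in Rnmt cKO. Such reads include those in introns, and their part in the results was not tested. No batch is named in the labels. Markers of the cell type were checked first. Cd4, the defining coreceptor, was present in all libraries, the CD4 T cell markers summed to 4194, 4133 and 3959 CPM in the controls and 3100.0, 3038 and 3475 CPM in Rnmt cKO, and 7 of these 10 markers were decreased and none was increased. Cd28, at 1143, 1102 and 1043 CPM in the controls and 996, 1098 and 1169 CPM in Rnmt cKO, did not pass the test (log2 fold change -0.01 ± 0.07 SE, adjusted p = 0.915). Markers of other lineages were low but not equal between libraries. The 15 B cell markers other than Ighm summed to 42.6, 35.3 and 122 CPM in the controls and to 304, 334 and 77.0 CPM in Rnmt cKO, so that Rnmt cKO libraries 1 and 2 stood above all controls whereas Rnmt cKO library 3 stood below control 3. Ighm, the immunoglobulin heavy chain and the largest single B cell marker, was at 287, 284 and 272 CPM in the controls and at 242, 194 and 187 CPM in Rnmt cKO. For this reason the counts of many of the groups are also given with Rnmt cKO library 3 alone against the 3 controls, in which none of the tested B cell markers was increased and which called 2193 genes increased and 2309 decreased. In that comparison the spread comes from the controls, and the single library is assumed to vary like them. It shares these 4 libraries with the full comparison and is therefore no independent evidence.

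The remaining marker lists, other than that of memory T cells, had lower counts. Markers of natural killer cells summed to 4.24, 5.08 and 5.55 CPM in the controls and 6.72, 6.29 and 7.21 CPM in Rnmt cKO, without overlap, and 1 of 2 tested was increased. The other was Klrd1, the most counted (49.8% of the sum), which had a log2 fold change of -0.36 and did not pass the test. Without Rnmt cKO library 3 Klrd1 was decreased (-0.66). Erythroid markers summed to 0, 0.265 and 0.0539 CPM in the controls and 0.0679, 0.206 and 0.173 CPM in Rnmt cKO, and none was tested. The 14 myeloid markers summed to 1.96, 2.44 and 2.59 CPM in the controls and 7.40, 5.47 and 3.59 CPM in Rnmt cKO, without overlap, and 1 of the 2 with enough counts to be tested was increased. Trdc, the constant region of the T cell receptor delta chain, was at 7.64, 7.04 and 6.42 CPM in the controls and 20.5, 18.2 and 20.5 CPM in Rnmt cKO (log2 fold change 1.49 ± 0.11 SE, adjusted p = 3.0e-05). Of 4 tested markers of regulatory T cells 3 were increased, among them Ikzf2 (1.12), and their list summed to 32.0, 33.9 and 35.8 CPM in the controls and 49.5, 51.5 and 46.6 CPM in Rnmt cKO, without overlap, while Foxp3, the defining factor, was below 1 CPM in every library. The Cd8a values overlapped between genotypes, at 9.76, 10.1 and 24.2 CPM and 16.5, 9.18 and 3.50 CPM. Of 8 tested markers of memory T cells, of which 1 passed the filter through the Rnmt cKO libraries alone, 6 were increased (4 of the 5 above 1 CPM in all libraries), and the list summed to 229, 237 and 242 CPM in the controls and 443, 595 and 393 CPM in Rnmt cKO, without overlap. The part of these markers in the gene groups described here was not tested.

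Among groups with secreted products, cytokine and chemokine RNAs were higher in Rnmt cKO. Of 25 cytokines listed, 11 were tested, 9 of these were increased and none was decreased (median log2 fold change 0.80), with 1 member passing the filter through the Rnmt cKO libraries alone; of the 9 members above 1 CPM in all 6 libraries, 8 were increased. Ifng, the signature cytokine of T helper 1 cells (GRCm38 chr10:118441046-118445892), was at 1.91, 1.43 and 3.07 CPM in the controls and at 18.9, 23.8 and 18.0 CPM in Rnmt cKO (log2 fold change 3.24 ± 0.24 SE, adjusted p = 3.6e-05). All 3 Rnmt cKO libraries were therefore several-fold above the highest control. Lif, a cytokine of the interleukin 6 family, was 4.65-fold higher, with 5.31, 5.29 and 8.52 CPM in the controls and 27.2, 38.4 and 23.5 CPM in Rnmt cKO. For Lta, which encodes lymphotoxin alpha, the values were 6.31, 5.88 and 7.12 CPM and 22.7, 25.2 and 25.8 CPM (log2 fold change 1.93 ± 0.11 SE, adjusted p = 1.3e-05). Without Rnmt cKO library 3, 1 cytokine was decreased. With Rnmt cKO library 3 alone, 7 increased and 1 decreased of 10 tested cytokines were called, and the decreased one was Csf1, the growth factor of macrophages, chosen after its values were seen, with a log2 fold change of 0.17 with all libraries and -1.15 with this one alone. Il2, the growth factor that activated T cells make for themselves, was also increased, from 10.2, 5.98 and 7.98 CPM to 19.8, 26.0 and 21.7 CPM (log2 fold change 1.48 ± 0.19 SE, adjusted p = 4.1e-04), and was chosen after its values were seen.

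Chemokines and chemokine receptors moved in the same direction: 17 of 24 were tested, 14 were increased and none was decreased (median 1.56; 1 decreased without control 3), and 12 were increased more than 2-fold. Of these 17, 2 passed the filter through the Rnmt cKO libraries alone and 8 of the 10 members above 1 CPM in all libraries were increased. Ligands and receptors both contributed, with 7 of 8 chemokines and 7 of 9 receptors increased. Ccl4, an inflammatory chemokine, was at 18.3, 17.5 and 20.3 CPM in the controls and 62.1, 50.3 and 73.2 CPM in Rnmt cKO (log2 fold change 1.73 ± 0.14 SE, adjusted p = 4.9e-05). Xcl1, which attracts cross-presenting dendritic cells, was at 12.1, 17.0 and 15.5 CPM and 44.3, 28.8 and 65.1 CPM. Both genes were highest in Rnmt cKO library 3. The lymph node homing receptor Ccr7 accounted for 88.4% of the summed CPM of the list and was 1.57-fold higher (882, 935 and 812 CPM against 1288, 1359.5 and 1492 CPM). Fewer members could be called with Rnmt cKO library 3 alone, in which 7 increased and 0 decreased of 10 tested were called (median 0.93).

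Cytotoxic genes and T-box factors are low in unstimulated helper cells and are typical of killer lymphocytes. The sum of the natural killer cell markers given above was also higher in all Rnmt cKO libraries, although Klrd1, their most counted member, was not increased. The part of these cells in the cytotoxic list was not tested. Of 12 tested members of 20, 8 were increased and none decreased (median 1.30; 1 decreased without control 1), and 8 increased and 0 decreased of 11 tested were called with Rnmt cKO library 3 alone. Eomes, the T-box factor of memory and cytotoxic T cells, rose 8.78-fold, from 2.44, 3.02 and 3.23 CPM to 20.2, 35.7 and 20.5 CPM. Serpinb9 and Serpinb6b encode intracellular inhibitors of granule proteases. Serpinb9 (GRCm38 chr13:33003250-33017957) was at 12.7, 14.0 and 18.6 CPM in the controls and 101, 208 and 80.7 CPM in Rnmt cKO (log2 fold change 3.10 ± 0.36 SE, adjusted p = 2.7e-04). For Serpinb6b the values were 7.38, 9.48 and 10.1 CPM and 34.9, 66.6 and 31.5 CPM. Library 2 was the highest Rnmt cKO library for these 3 genes, and the lowest one was still above every control. The granule proteoglycan Srgn, which made up 64.8% of the summed CPM of the list, had a smaller log2 fold change (0.33 ± 0.07 SE).

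Ligands and receptors of the TNF superfamily, which carry costimulatory and death signals between lymphocytes, were divided. Of 24 tested members, 13 were increased and 5 decreased (median 0.48; 12 and 5 of the 22 members above 1 CPM in all libraries, and 12 increased and 5 decreased of 23 with Rnmt cKO library 3 alone), with 7 of 11 ligands and 6 of 13 receptors increased. Tnfsf11 encodes RANKL, the osteoclast differentiation factor that T cells also secrete, and stood at 21.2, 20.7 and 15.4 CPM in the controls and 140.0, 143 and 162 CPM in Rnmt cKO (log2 fold change 2.96 ± 0.13 SE, adjusted p = 6.1e-06). Tnfsf4, which encodes the ligand of OX40, was at 14.9, 20.1 and 14.2 CPM and 86.8, 89.6 and 104 CPM (log2 fold change 2.51 ± 0.14 SE, adjusted p = 1.3e-05). In contrast Cd27, a receptor of naive cells, fell from 147, 129 and 145 CPM to 64.4, 56.1 and 69.2 CPM, and Cd40lg, through which helper T cells license B cells, fell from 35.5, 29.4 and 36.7 CPM to 17.6, 17.8 and 21.0 CPM. The receptor Tnfrsf26 also fell 2.68-fold. Ligands of T cell help were therefore among the rises and among the falls.

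**Figure D1:**
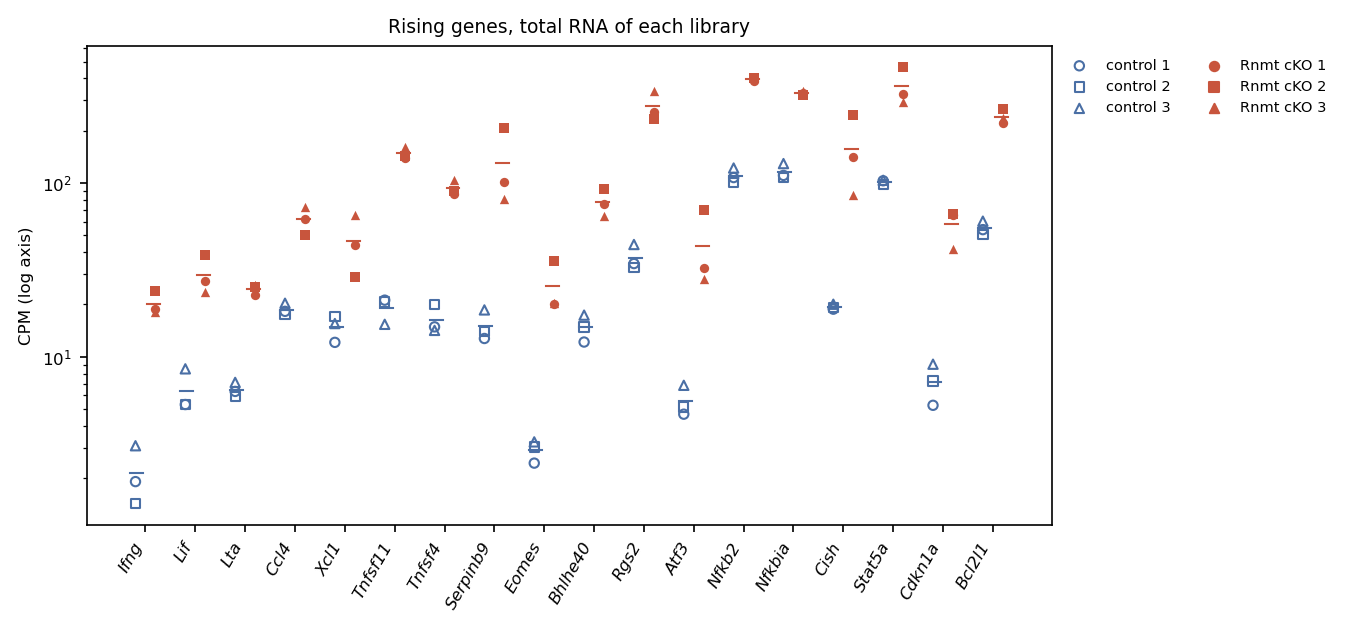
CPM (log axis) of 18 increased genes in each total RNA library, controls as open blue symbols, Rnmt cKO as filled red symbols, and the mean of each genotype as a short line. For Ifng the controls lie at or below 3.07 CPM and the Rnmt cKO libraries at or above 18.0 CPM.

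Immediate early genes are transcribed within minutes of a stimulus without new protein synthesis and usually decline within hours. At 20 h, 29 of the 40 tested were increased and 2 decreased in Rnmt cKO (median 1.00), and 20 of the rises exceeded 2-fold. Through the Rnmt cKO libraries alone 2 members passed the filter, and of the 38 members above 1 CPM in all libraries 27 were increased. With Rnmt cKO library 3 alone 25 increased and 2 decreased of 38 tested were called (median 1.09). The rises comprised 17 of 23 transcription factors and 12 of 17 other members. Atf3, a stress-responsive basic leucine zipper factor, was at 4.67, 5.14 and 6.85 CPM in the controls and 32.5, 70.3 and 27.9 CPM in Rnmt cKO (log2 fold change 2.97 ± 0.38 SE, adjusted p = 3.9e-04). Rgs2 and Rgs1 encode regulators that switch off G protein signals. Rgs2 (GRCm38 chr1:143999338-144004161) was at 34.4, 32.7 and 44.3 CPM and 257, 235 and 339 CPM (log2 fold change 2.90 ± 0.17 SE, adjusted p = 1.4e-05). Rgs1, the most counted member of the list, was at 276, 296 and 363 CPM and 840.3, 729 and 994 CPM. Both were highest in Rnmt cKO library 3. The 2 decreased members were Dusp6, a phosphatase of ERK, from 247, 213 and 255 CPM to 115, 94.7 and 127 CPM, and Npas4, a factor best known from neurons, from 5.78, 4.82 and 6.31 CPM to 3.05, 2.22 and 1.94 CPM.

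NF-kB subunits and the inhibitors that they induce rose together. Of the 18 genes of this list, all of which were tested, 12 were increased and 1 was decreased (median 0.54; 11 and 1 with Rnmt cKO library 3 alone), among them 4 of 5 subunits and 7 of 8 inhibitors. Nfkb2, the precursor of the p52 subunit (GRCm38 chr19:46304320-46312385), was at 108, 101 and 122 CPM in the controls and 386, 402 and 403 CPM in Rnmt cKO (log2 fold change 1.85 ± 0.08 SE, adjusted p = 6.1e-06). Nfkbia encodes the inhibitor that retains NF-kB in the cytoplasm and was at 111, 107 and 129 CPM and 332, 321 and 340.3 CPM (log2 fold change 1.52 ± 0.08 SE, adjusted p = 1.1e-05). Tnfaip3, which encodes the deubiquitinating inhibitor A20, was at 31.2, 31.7 and 54.3 CPM and 133, 148 and 129.5 CPM (log2 fold change 1.81 ± 0.20 SE, adjusted p = 2.1e-04). Each Rnmt cKO library was more than 2-fold above the highest control for these 3 genes. Nfkb1, the precursor of p50, was 1.57-fold higher, and the kinase subunit Ikbkg, also known as NEMO, was the decreased member (-0.44 ± 0.07 SE). Without control 2, 2 members were decreased.

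Because NF-kB genes are known to be targets of NF-kB itself, their promoters were searched for one form of the kB site, with the letters GGG, any 2 bases and TTTCC, on both strands (read on the other strand as GGAAA, any 2 bases and CCC). Of 14 members with a RefSeq promoter on GRCm38.p6, covering 250 bases before to 50 bases after the start, 4 held a match (28.6%), against 512 of 27025 genes of the whole table (1.895%), 171 of 8498 of its genes tested in total RNA (2.01%) and 535 of its 32851 promoters (1.63%). The matching genes were Nfkb2, Nfkbia, Rel and Tnfaip3, and their sites are shown because 3 of these are the genes of the list with the largest rises. Rel, the lymphoid subunit c-Rel, was named for its match and had a log2 fold change of 1.50 ± 0.14 SE. The 30 bases around each match are written 5′ to 3′ on the strand of the gene, with the matched letters in capitals.
Nfkb2, first start site (chr19:46304716-46304745, plus strand): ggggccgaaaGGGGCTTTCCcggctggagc
Nfkb2, second start site (chr19:46305695-46305724, plus strand): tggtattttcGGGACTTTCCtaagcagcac
Nfkbia (chr12:55492657-55492686, minus strand): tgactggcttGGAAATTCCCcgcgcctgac
Rel (chr11:23771041-23771070, minus strand): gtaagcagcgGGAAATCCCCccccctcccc
Tnfaip3 (chr10:19015403-19015432, minus strand): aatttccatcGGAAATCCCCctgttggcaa
The same letters were found in the promoters of 5 of 21 cytokine genes, 2 of 18 chemokine and receptor genes and 1 of 31 immediate early genes that had a promoter in the table. A match describes the sequence of the window and not the binding of a factor.

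Cytokine receptors and their signalling genes moved in part. Of 23 tested receptors, 7 were increased and 6 decreased, with shares of 30.4% and 26.1% that are close to those of all genes. Il2ra, the high-affinity chain of the interleukin 2 receptor and a marker of activation, was at 165, 179 and 185 CPM in the controls and 286, 370.4 and 272 CPM in Rnmt cKO (log2 fold change 0.81 ± 0.12 SE, adjusted p = 7.2e-04). Il21r, the receptor of interleukin 21, was at 48.4, 47.3 and 47.7 CPM and 131, 161 and 128 CPM. Among the falls was Ifngr1, the ligand-binding chain of the interferon gamma receptor, from 46.1, 43.4 and 41.4 CPM to 25.5, 23.6 and 28.6 CPM. Of 21 genes of the JAK, STAT and SOCS families, 9 were increased and 2 decreased, and 7 of the 9 rises were inhibitors of the pathway (7 of 10 inhibitors tested). Cish, an inhibitor induced by STAT5, was at 18.8, 19.2 and 20.1 CPM and 141, 246 and 84.9 CPM (log2 fold change 3.02 ± 0.36 SE, adjusted p = 2.8e-04). Stat5a, which carries signals of interleukin 2, was at 103, 98.5 and 104 CPM and 326, 464 and 292 CPM (log2 fold change 1.83 ± 0.16 SE, adjusted p = 6.9e-05). Its neighbour Stat5b was lower (-0.38 ± 0.08 SE), as was Stat6, the factor of interleukin 4 signals (-0.51 ± 0.06 SE). The kinase Jak2 and the inhibitor Socs3 were higher (1.12 ± 0.08 SE and 1.32 ± 0.09 SE).

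Lineage factors of T helper cells were likewise mixed, with 11 increased and 6 decreased of 31 tested (10 and 5 of the 28 above 1 CPM in all libraries), and 10 of the 11 rises exceeded 2-fold. Their median was 0.21, between 0.14 and 0.40 when 1 library was left out, the highest without control 3. With Rnmt cKO library 3 alone 9 increased and 4 decreased of 30 were called (median 0.08). Bhlhe40, a factor that supports cytokine production, was at 12.2, 14.8 and 17.4 CPM in the controls and 75.8, 92.8 and 64.3 CPM in Rnmt cKO (log2 fold change 2.39 ± 0.17 SE, adjusted p = 2.9e-05). Gata3, the master factor of T helper 2 cells, was low in both genotypes and rose from 2.39, 2.44 and 2.26 CPM to 8.96, 15.0 and 6.26 CPM. Ikzf1, which encodes Ikaros, fell from 746, 699 and 748 CPM to 432, 425 and 433 CPM (log2 fold change -0.77 ± 0.06 SE, adjusted p = 3.6e-05). Irf4, whose level follows the strength of the T cell receptor signal and which held the largest share of the list, was at 872, 844 and 1047 CPM and 955, 1082 and 910.4 CPM and did not pass the test (adjusted p = 0.460). In the CD28 family and inhibitory receptors, 8 of 19 tested members were increased and 4 were decreased. Through the Rnmt cKO libraries alone 2 members passed the filter, and of the 16 members above 1 CPM in all libraries 6 were increased and 4 decreased, and 6 increased and 4 decreased of 17 with Rnmt cKO library 3 alone. The adhesion receptor Cd44, which marks activated and memory cells, was at 22.1, 27.9 and 28.5 CPM and 83.8, 208 and 66.7 CPM (log2 fold change 2.19 ± 0.40 SE, adjusted p = 0.00250). Without Rnmt cKO library 2, its highest library, the log2 fold change of Cd44 was 1.54. Cd69, an early activation marker, rose 1.80-fold. Pdcd1, which encodes the inhibitory receptor PD-1, fell 2.54-fold, from 111, 95.7 and 94.6 CPM to 38.6, 31.4 and 48.6 CPM. Cd5, which tunes receptor signals and is higher on cells with stronger self-recognition, was also lower (-0.65 ± 0.13 SE).

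RNAs of the T cell receptor complex were lower. Of 39 genes of the complex and its proximal signalling, 20 were decreased (51.3%) and 5 increased (median -0.30), and the list as a whole summed to 10506, 10286 and 10402 CPM in the controls and 8349, 8356 and 8628 CPM in Rnmt cKO. Falls were seen in 5 of 8 receptor chains, 9 of 21 kinases and adaptors and 6 of 10 negative regulators and phosphatases. Cd3g, the gamma chain of CD3 (GRCm38 chr9:44969572-44980431), was at 468, 456 and 428 CPM in the controls and 194, 162 and 221 CPM in Rnmt cKO (log2 fold change -1.23 ± 0.11 SE, adjusted p = 7.5e-05). Lck, the kinase that phosphorylates the CD3 chains, was at 364, 356 and 347 CPM and 197, 177 and 199 CPM (log2 fold change -0.90 ± 0.06 SE, adjusted p = 3.2e-05). Skap1, an adaptor that links the receptor to integrins, is not a member of this list. It was one of the 10 largest falls of protein-coding genes (those averaging 4 or more on the log2 CPM scale). Its values were 154, 155 and 134 CPM and 42.1, 32.8 and 50.1 CPM (log2 fold change -1.82 ± 0.14 SE, adjusted p = 4.3e-05). Within the list Cblb, a ubiquitin ligase that restrains receptor signals, rose instead (1.13 ± 0.23 SE), as did the adaptor Sh2d2a (0.97 ± 0.06 SE). With Rnmt cKO library 3 alone, 4 increased and 17 decreased of 39 were called. Without that library 8 of the 39 were increased instead of 5.

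The GIMAP GTPases, a family of small GTPases of lymphocytes that support the survival of naive T cells, fell almost as a block. All 8 genes of the cluster (GRCm38 chr6:48647234-48770851) were tested, 7 were decreased and none was increased (median -1.14), and 5 fell more than 2-fold. With Rnmt cKO library 3 alone 0 increased and 6 decreased of 8 were called. Gimap3 was at 411, 376 and 442 CPM in the controls and 147, 122 and 132 CPM in Rnmt cKO (log2 fold change -1.61 ± 0.09 SE, adjusted p = 1.3e-05). Gimap4 was at 308, 338 and 397 CPM and 159.7, 119.6 and 153 CPM, and Gimap5, whose loss depletes T cells in rodents, at 74.1, 71.9 and 79.3 CPM and 34.3, 27.9 and 32.5 CPM. Gimap6 held the largest share of the family and fell least among these 4 (-0.40 ± 0.09 SE), and with Rnmt cKO library 3 alone it did not pass the test. The libraries of the genotypes did not overlap in the 7 called genes, and Gimap9, the other member and named for that, was at 202, 208 and 205 CPM and 192, 174 and 218 CPM.

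Other genes of the naive state showed no single direction. Of 31 tested, 11 were decreased and 6 increased (median -0.13, which was -0.21 without control 1 and -0.06 without Rnmt cKO library 2), and without Rnmt cKO library 1 the number decreased was 7. Besides Cd27, Ms4a4b, a membrane protein of resting T cells, was decreased (-0.93 ± 0.18 SE), while Ccr7 and the antiproliferative gene Btg1 were increased (0.63 ± 0.13 SE). The cytoskeleton and adhesion list was lower, with 17 decreased and 6 increased of 36 (median -0.23). Capg, an actin-capping protein, fell from 119.6, 149 and 96.4 CPM to 38.2, 31.2 and 43.7 CPM (log2 fold change -1.69 ± 0.17 SE, adjusted p = 1.5e-04). Itgb7, the integrin chain that directs T cells to the gut, fell from 165, 163 and 159.9 CPM to 61.3, 52.8 and 74.6 CPM (log2 fold change -1.37 ± 0.11 SE, adjusted p = 5.4e-05). In contrast Itgb1 rose from 99.9, 92.9 and 109 CPM to 211, 238 and 195 CPM, and Tubb6, a beta-tubulin, from 1.43, 1.48 and 0.916 CPM to 7.06, 8.15 and 7.43 CPM (log2 fold change 2.56 ± 0.19 SE, adjusted p = 3.5e-05). Actb, which made up the largest share of the list, was at 6714, 7031 and 6595 CPM and 7187, 6619.8 and 6523 CPM (log2 fold change 0.00 ± 0.06 SE).

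**Figure D2:**
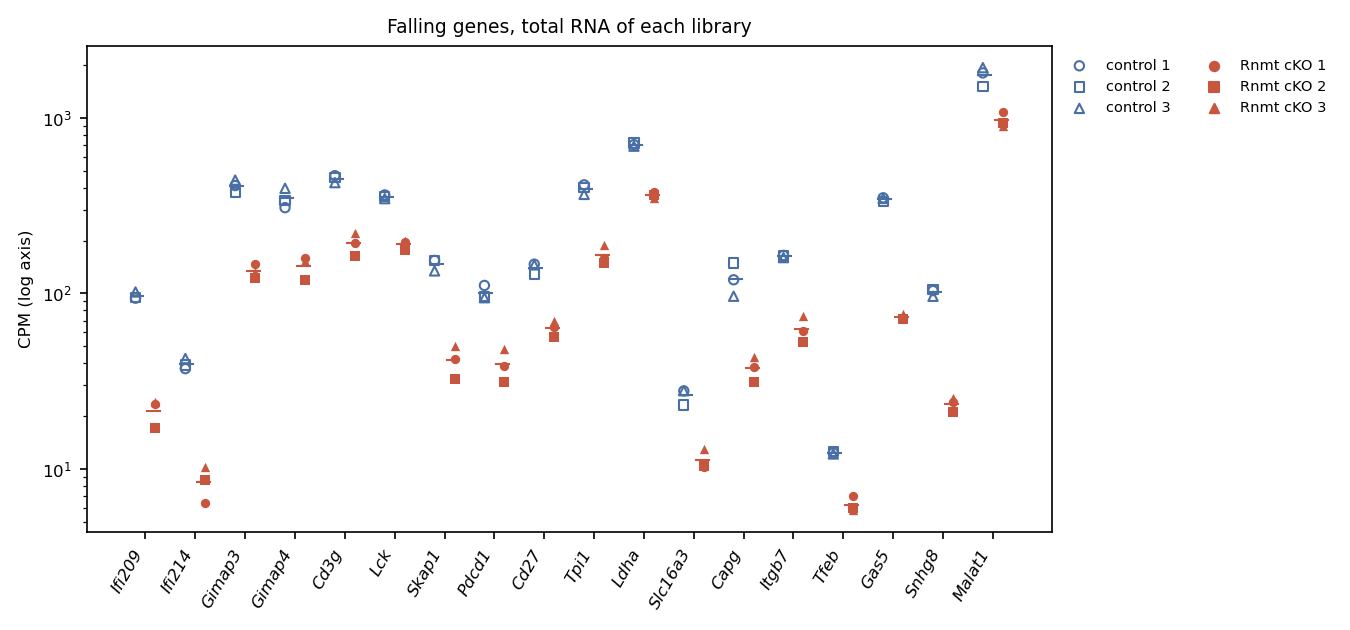
CPM (log axis) of 18 decreased genes in each total RNA library, with the symbols of the plot of rising genes. Every Rnmt cKO library lies below every control, for example at or below 24.0 CPM against at least 94.0 CPM for Ifi209.

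The p200 family, interferon-inducible proteins of which several bind DNA in the innate immune response, was decreased in every tested member. Of 11 listed genes 8 were tested, all 8 fell (median -1.59; all 8 with Rnmt cKO library 3 alone) and 6 fell more than 2-fold, and their cluster lies at GRCm38 chr1:173350879-173942672. Ifi209 was at 94.0, 94.8 and 102 CPM in the controls and 23.4, 17.1 and 24.0 CPM in Rnmt cKO (log2 fold change -2.17 ± 0.12 SE, adjusted p = 1.4e-05). Ifi214 was at 37.3, 39.1 and 42.6 CPM and 6.38, 8.62 and 10.2 CPM (log2 fold change -2.22 ± 0.15 SE, adjusted p = 2.7e-05). Both belong to the 10 largest falls of protein-coding genes. The members of this family resemble each other in sequence, so that reads could be split or lost between them, and only uniquely aligned reads were counted. Of 43 tested interferon-stimulated genes outside this family, 8 were increased and 2 decreased (6 and 2 of the 39 above 1 CPM in all libraries), 18.6% and 4.65% and thus smaller shares than those of all genes. Ifit2 fell from 65.6, 63.4 and 67.8 CPM to 32.7, 27.8 and 33.8 CPM and the immunity-related GTPase Irgm2 from 74.7, 88.4 and 132 CPM to 45.1, 43.0 and 36.5 CPM, whereas Ifih1, which encodes the RNA sensor MDA5, rose from 14.9, 13.7 and 16.9 CPM to 43.8, 31.8 and 45.1 CPM. Gbp2, a guanylate-binding protein and the most counted member, was at 596, 801 and 1254 CPM in the controls, a wide spread, and at 1019, 914 and 1045 CPM in Rnmt cKO. This list depended on single libraries, since 16 members were increased without control 3, 7 were decreased without control 1 and 4 without Rnmt cKO library 3, and 5 were increased without Rnmt cKO library 1.

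Targets of p53, the factor that stops the cell cycle or triggers death after damage, were mostly higher. Of 27 tested, 19 were increased and 3 decreased (median 0.59), as were 19 and 3 with Rnmt cKO library 3 alone. Cdkn1a encodes the cyclin-dependent kinase inhibitor p21 (GRCm38 chr17:29090976-29100727) and was at 5.25, 7.25 and 9.06 CPM in the controls and 65.1, 66.4 and 41.8 CPM in Rnmt cKO (log2 fold change 3.003 ± 0.24 SE, adjusted p = 4.4e-05). Plk2, a polo-like kinase, was at 12.2, 13.0 and 11.9 CPM and 41.1, 42.2 and 44.2 CPM (log2 fold change 1.78 ± 0.08 SE, adjusted p = 6.1e-06). Pmaip1 encodes the pro-apoptotic protein NOXA and was at 9.23, 12.5 and 12.6 CPM and 36.7, 47.0 and 39.2 CPM (log2 fold change 1.84 ± 0.14 SE, adjusted p = 4.3e-05). The stress gene Gadd45g, which is not a member of this list, went from 2.12, 2.44 and 3.18 CPM to 32.0, 43.2 and 25.1 CPM. It was among the 10 largest rises of protein-coding genes. The list was not uniform: Sesn1, a sestrin that inhibits mTORC1, fell from 113, 117 and 102 CPM to 55.5, 46.0 and 54.6 CPM, and the repair genes Ddb2 (-0.62) and Rrm2b (-0.67) fell too. Trp53inp1, the most counted target, did not pass the test (0.15 ± 0.08 SE).

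Genes for and against survival were among the rises. In the Bcl2 family and caspases, 13 of 29 tested genes were increased and 7 decreased, with 5 of 10 survival genes and 8 of 19 death genes increased. Bcl2l1, which encodes the survival protein BCL-XL, was at 53.9, 50.6 and 60.3 CPM in the controls and 222, 267 and 236 CPM in Rnmt cKO (log2 fold change 2.14 ± 0.09 SE, adjusted p = 6.1e-06). Mcl1, another survival gene, was at 772, 776 and 754 CPM and 1086, 1135 and 1258 CPM, and Bbc3, which encodes the death-promoting PUMA, at 21.0, 24.9 and 21.1 CPM and 39.3, 34.3 and 50.0 CPM. The initiator caspase genes Casp9 and Casp8 were lower (-0.92 ± 0.14 SE and -0.41 ± 0.06 SE). Without control 2 or without Rnmt cKO library 1, 4 members instead of 7 were decreased.

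In cyclins, cyclin-dependent kinases, RB and E2F genes, 14 of 41 were increased and 5 decreased (median 0.15, and between 0.07, without control 3, and 0.19 with 1 library left out), and 3 were decreased without control 1 or without Rnmt cKO library 1. The RB-related repressor Rbl1 fell from 133, 143 and 132 CPM to 82.5, 88.9 and 86.7 CPM, the inhibitor Cdkn1b, known as p27, fell 1.48-fold, and E2f8 rose 1.95-fold. Ccnd2, a cyclin of the first phase of the cycle, was at 362, 362 and 507 CPM in the controls and 812, 1057 and 535 CPM in Rnmt cKO (log2 fold change 0.97 ± 0.24 SE, adjusted p = 0.00988), but Rnmt cKO library 3 was close to control 3 and alone against the controls did not pass (adjusted p = 0.112). Of 43 genes of mitosis and the spindle, 7 were increased and none decreased. This is a smaller share than that of all genes, and it depended on the libraries: 18 were increased without control 2, 4 without control 1 and 12 without Rnmt cKO library 3, and 1 was decreased without control 3. The condensin subunit Smc4 was at 671, 706 and 666 CPM and 946, 907 and 952 CPM.

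RNAs of the replication-dependent histones, which are made in S phase and end in a stem-loop instead of a poly(A) tail, were higher. Of 65 genes 55 were tested, 45 were increased (81.8%) and 1 was decreased (median 0.81), and of the 54 above 1 CPM in all libraries 44 were increased. With Rnmt cKO library 3 alone 39 increased and 0 decreased of 54 were called. In the large cluster on chromosome 13 (GRCm38 chr13:21715763-23934851), 40 of 45 tested genes were increased and none was decreased, and in the smaller cluster on chromosome 3 (chr3:96219865-96270132) 4 of 7 were increased and 1, Hist2h2ab, was decreased (-0.55 ± 0.14 SE, not passing with Rnmt cKO library 3 alone). Hist1h1c, a linker histone and the most counted member, was at 344, 412 and 334 CPM in the controls and 791, 624 and 758 CPM in Rnmt cKO (log2 fold change 1.00 ± 0.11 SE, adjusted p = 2.5e-04). Hist1h4i, one of several genes for histone H4, was at 14.1, 13.4 and 11.4 CPM and 42.9, 37.1 and 43.4 CPM (log2 fold change 1.66 ± 0.11 SE, adjusted p = 1.9e-05). Histone genes made up 0.401, 0.548 and 0.360% of gene counts in the controls and 0.818, 0.657 and 0.770% in Rnmt cKO, which was 1.71 times as much without overlap (exact permutation test, two-sided p = 0.1, the smallest that 3 against 3 libraries allow). Control 2 was the control closest to the Rnmt cKO libraries. Many histone genes are near-identical copies, so that the value of a single gene is less certain than that of the class.

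RNAs of glycolytic enzymes were mostly lower. Of 29 genes of glycolysis and the pentose phosphate pathway, 17 were decreased (58.6%) and 3 increased (median -0.42), with 15 of 22 glycolytic genes and 2 of 7 genes of the pentose phosphate pathway that were decreased. The list summed to 4819, 4816 and 4492 CPM in the controls and 3292, 3212 and 3307 CPM in Rnmt cKO. Tpi1, triose phosphate isomerase, was at 415, 399 and 366 CPM and 159, 149 and 189 CPM (log2 fold change -1.25 ± 0.10 SE, adjusted p = 4.4e-05). Ldha, lactate dehydrogenase, was at 704, 719 and 689 CPM and 379, 365 and 351 CPM (log2 fold change -0.95 ± 0.06 SE, adjusted p = 1.8e-05). Slc16a3, the exporter of the lactate that this enzyme makes, fell from 27.9, 23.2 and 27.9 CPM to 10.3, 10.4 and 13.0 CPM (log2 fold change -1.22 ± 0.12 SE, adjusted p = 1.4e-04). Hk2, the inducible hexokinase at the entry of the pathway, rose instead, from 32.6, 30.7 and 36.7 CPM to 61.3, 78.5 and 50.8 CPM. Without Rnmt cKO library 3, 5 members instead of 3 were increased. The counts with that library alone were 4 increased and 15 decreased of 29.

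Biosynthetic lists were divided. Of 27 genes of purine and pyrimidine synthesis 10 were increased and 8 decreased. The paralogs that make CTP moved in opposite directions, with Ctps at 96.5, 93.2 and 101 CPM in the controls and 197, 197 and 201 CPM in Rnmt cKO and Ctps2 at 96.4, 97.2 and 96.8 CPM and 50.8, 47.1 and 60.7 CPM. Impdh2, the rate-limiting enzyme of guanine nucleotide synthesis, fell from 45.9, 46.0 and 44.9 CPM to 20.8, 22.0 and 20.3 CPM (log2 fold change -1.12 ± 0.07 SE, adjusted p = 1.6e-05). Sterol genes included 12 increased and 7 decreased of 30 (11 and 10 without Rnmt cKO library 2). Their median was 0.07, and 0.02 with Rnmt cKO library 3 alone. Insig1, which retains the sterol sensor in the endoplasmic reticulum, rose from 65.4, 57.9 and 54.0 CPM to 160.0, 158 and 152 CPM (log2 fold change 1.41 ± 0.08 SE, adjusted p = 1.3e-05). The cholesterol exporter Abca1 fell (-0.97 ± 0.16 SE). In the polyamine list 3 of 13 were increased and 3 decreased (23.1% each), with Srm, spermidine synthase, at 78.8, 70.9 and 84.6 CPM and 185, 179.7 and 143 CPM. Of 17 genes of serine and one-carbon metabolism 2 were increased and 6 decreased (1 and 4 without control 1, and 2 and 4 without Rnmt cKO library 2). Ahcy, which clears the S-adenosylhomocysteine left by methyltransferases, fell from 33.6, 33.5 and 29.4 CPM to 18.0, 14.8 and 15.4 CPM (log2 fold change -1.01 ± 0.10 SE, adjusted p = 1.3e-04). The medians of the 4 lists lay between -0.14 and 0.14 with any 1 library left out.

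The stress response that runs through Atf4 and the genes that it feeds gave no common direction. Of 25 tested genes of the integrated stress response, 8 were increased (32%) and 5 decreased (20%). Sesn2, a sestrin induced by amino acid shortage, rose from 16.2, 14.5 and 13.8 CPM to 36.3, 42.2 and 42.1 CPM (log2 fold change 1.44 ± 0.10 SE, adjusted p = 2.5e-05), and Ddit4, an inhibitor of mTORC1, rose 2.37-fold. Ddit3, which encodes the factor CHOP, fell from 18.8, 19.1 and 19.9 CPM to 9.44, 11.7 and 12.0 CPM, while Atf4 itself, at 259, 250.2 and 250.3 CPM and 268, 266 and 279.8 CPM, did not pass the test (adjusted p = 0.157). Among the 23 aminoacyl-tRNA synthetases and their cofactors 9 were increased and 5 decreased. Qars, the glutaminyl-tRNA synthetase, fell from 165, 160.0 and 166 CPM to 95.7, 89.7 and 81.0 CPM (log2 fold change -0.88 ± 0.07 SE, adjusted p = 4.3e-05). The combined glutamyl-prolyl enzyme Eprs rose from 423, 432 and 427 CPM to 621, 626 and 651 CPM. Of 10 tested amino acid transporters 6 were increased and 2 decreased, including both chains of the leucine transporter, Slc7a5 at 88.1, 88.7 and 87.9 CPM and 149.6, 169 and 134 CPM and Slc3a2 at 59.5, 57.1 and 66.1 CPM and 95.9, 93.7 and 82.6 CPM.

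RNAs of single RNA-binding proteins and chaperones differed between the genotypes, though not every list stood apart from the other genes. Of 27 hnRNP and poly(C)-binding proteins, which package and sort transcripts, 7 were increased (25.9%) and 5 decreased (18.5%). These shares did not exceed the 26.3% and 28.0% of all genes, and 12 were increased without Rnmt cKO library 3. Pcbp1, a protein that binds C-rich stretches and is encoded without introns, was at 54.7, 66.3 and 87.0 CPM in the controls and 304, 283 and 152 CPM in Rnmt cKO (log2 fold change 1.83 ± 0.27 SE, adjusted p = 8.1e-04). Hnrnpu, a nuclear scaffold protein, was at 591, 579.7 and 769.9 CPM and 1325, 1325 and 966 CPM (log2 fold change 0.90 ± 0.15 SE, adjusted p = 0.00165). Rnmt cKO library 3 was the lowest of its group for both. Regulators of mRNA decay included 14 increased and 4 decreased of 27 (median 0.31), with 1 rise in a member that passed the filter through the Rnmt cKO libraries alone. Without control 1 or without control 2 the number increased was 9, and with Rnmt cKO library 3 alone it was 7. Zc3h12a, which encodes the RNase regnase-1 that degrades cytokine mRNAs, was at 6.37, 5.66 and 7.39 CPM in the controls and 11.6, 10.9 and 8.29 CPM in Rnmt cKO (log2 fold change 0.66 ± 0.16 SE, adjusted p = 0.00994), and did not pass with library 3 alone (adjusted p = 0.135). Tia1, a protein of AU-rich sequences and stress granules, fell from 71.7, 69.7 and 70.8 CPM to 36.0, 38.8 and 37.4 CPM (log2 fold change -0.92 ± 0.06 SE, adjusted p = 2.2e-05), and Zc3h12d, a relative of Zc3h12a, fell from 332, 359 and 354 CPM to 198, 179.5 and 208 CPM. In decapping and 5′ to 3′ decay, 6 of 19 were increased (31.6%) and 4 decreased (21.1%). The decapping cofactors moved apart, Dcp1a from 91.8, 89.4 and 88.7 CPM to 151, 159.9 and 147 CPM and Dcp1b from 14.2, 15.0 and 14.5 CPM to 6.58, 5.62 and 7.26 CPM. Without control 1 or without Rnmt cKO library 2 only 2 of this list were decreased.

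Of 16 genes of cap synthesis and cap binding, 8 were increased and 3, including Rnmt, decreased. Larp1, which binds the caps of TOP mRNAs, was at 108, 116 and 127 CPM in the controls and 248, 314 and 205 CPM in Rnmt cKO (log2 fold change 1.13 ± 0.14 SE, adjusted p = 4.2e-04). Eif4e3, a relative of the translation factor eIF4E, fell from 20.0, 20.1 and 19.4 CPM to 10.1, 8.10 and 11.6 CPM. Among 18 SR proteins and Clk kinases, which select splice sites, 2 were increased and 6 decreased, with Srpk2, an SR protein kinase, at 76.3, 75.3 and 69.0 CPM and 39.6, 32.0 and 38.2 CPM (log2 fold change -1.01 ± 0.09 SE, adjusted p = 8.4e-05). The number increased was 4 without Rnmt cKO library 3 and 1 without control 1, control 2 or Rnmt cKO library 1.

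More heat shock chaperones were increased than decreased, but the list summed to 6689, 6692 and 6412 CPM in the controls and 6322, 6429 and 6073 CPM in Rnmt cKO. Of 17 tested, 11 were increased and 2 decreased (median 0.38; 10 and 2 of the 16 above 1 CPM in all libraries), and with Rnmt cKO library 3 alone 6 were increased and 2 decreased (median 0.25). Dnajb1, a cochaperone of HSP70, was at 108, 99.6 and 99.7 CPM in the controls and 185, 169 and 196 CPM in Rnmt cKO (log2 fold change 0.84 ± 0.07 SE, adjusted p = 5.9e-05). Hsp90ab1, the constitutive HSP90 and 51.2% of the summed CPM, fell from 3931, 3889 and 3743 CPM to 2764, 2828 and 2634 CPM (log2 fold change -0.49 ± 0.05 SE, adjusted p = 2.0e-04). In the CCT chaperonin, which folds actin and tubulin, 6 of 8 subunits were increased by small steps and none was decreased (median 0.23), for example Cct7 from 508, 500.1 and 490.2 CPM to 718, 735 and 725 CPM. Chaperones and sensors of the endoplasmic reticulum had 6 of 20 increased and 2 decreased, with Xbp1, the factor of the unfolded protein response, 1.76-fold higher. The proteasome had 14 of 42 subunits increased and 7 decreased. The number decreased was 1 without Rnmt cKO library 1 and 3 without control 1, control 2 or Rnmt cKO library 2, and the number increased was 8 without control 1. The regulatory subunits Psmd1 and Psmd12 rose (0.62 ± 0.05 SE and 0.54 ± 0.05 SE).

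Of 77 mitochondrial ribosomal proteins 26 were increased and 14 decreased (15 to 17 increased when any 1 control was left out). The subunits diverged, with Mrps2 from 29.9, 29.8 and 32.0 CPM to 67.3, 68.3 and 64.2 CPM and Mrpl24 from 113, 111 and 105 CPM to 64.6, 64.1 and 72.7 CPM. Of 23 genes of mitochondrial protein import 9 were increased and 3 decreased, including Grpel1, a cochaperone of the import motor (0.69 ± 0.06 SE). The mRNAs encoded by the mitochondrial genome, which carry no guanosine cap, had 1 of 8 decreased and none increased. That one was mt-Nd3, at 13.2, 14.2 and 6.42 CPM in the controls and 4.82, 4.39 and 5.83 CPM in Rnmt cKO, which did not pass with Rnmt cKO library 3 alone (adjusted p = 0.109). Without Rnmt cKO library 3, 5 of the 8 were increased. The most counted, mt-Co1, was at 3032, 2721 and 2963 CPM and 3033, 2918 and 2708 CPM. In the RNA polymerase I machinery 9 of 15 were increased and 3 decreased (median 0.29), with the subunit Polr1b 1.96-fold higher (143, 132 and 132 CPM against 238, 271 and 285 CPM) and Taf1d, a factor of its promoter and a host of snoRNAs, lower (515, 472 and 501 CPM against 253, 252 and 274 CPM).

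Selenoproteins, which incorporate selenocysteine and include antioxidant enzymes, had 9 decreased and 2 increased of 17 (median -0.30), and 4 were increased without Rnmt cKO library 3. Selenow fell from 96.9, 84.1 and 85.9 CPM to 51.1, 48.1 and 53.3 CPM (log2 fold change -0.81 ± 0.08 SE, adjusted p = 9.7e-05), and Selenos, a protein of the endoplasmic reticulum, rose 1.61-fold. Genes of autophagy and the lysosome had 10 decreased and 6 increased of 25, with falls in 6 of 13 lysosomal and 4 of 12 autophagy genes. Tfeb, the transcription factor of lysosomal genes, fell from 12.4, 12.5 and 12.2 CPM to 6.99, 5.98 and 5.83 CPM (log2 fold change -0.99 ± 0.11 SE, adjusted p = 2.0e-04). Sqstm1, the autophagy receptor p62, rose from 119, 112 and 122 CPM to 197, 190.1 and 219.8 CPM. Of 289 zinc finger genes named Zfp, many of which encode repressors of transcription, 61 were increased (21.1%) and 91 decreased (31.5%), with 40 increased and 51 decreased of 285 with Rnmt cKO library 3 alone. Zfp831 fell from 51.6, 51.9 and 46.5 CPM to 17.1, 18.5 and 16.2 CPM and Zfp51 rose from 38.7, 38.3 and 40.2 CPM to 116, 110.0 and 122 CPM.

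Besides the group members, the 10 largest falls among protein-coding genes included Nt5e, which encodes the surface enzyme CD73 that makes adenosine, at 32.8, 74.7 and 26.0 CPM in the controls, where control 2 was the highest, and 7.33, 8.20 and 8.60 CPM in Rnmt cKO (log2 fold change -2.46 ± 0.39 SE, adjusted p = 0.00110). Without control 2 the log2 fold change of Nt5e was -1.87. Others were Snn, a small membrane protein, at 94.0, 85.4 and 83.4 CPM and 24.3, 19.1 and 15.8 CPM, Plin3, a coat protein of lipid droplets, at 26.4, 28.8 and 24.6 CPM and 6.86, 6.40 and 8.73 CPM, and Acap1, which acts in integrin recycling, at 60.9, 62.5 and 60.2 CPM and 18.9, 16.6 and 19.2 CPM. Among the 10 largest rises, Hemk1, a methyltransferase of release factors, was at 7.43, 5.40 and 6.25 CPM and 39.2, 94.3 and 31.3 CPM (log2 fold change 3.11 ± 0.43 SE, adjusted p = 6.0e-04), and without Rnmt cKO library 2 its log2 fold change was 2.48. Its neighbour on chromosome 9, Cish, is the gene described above with the same order of the Rnmt cKO libraries.

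Classes of non-coding RNA also differed. Host lncRNAs of small nucleolar RNAs (snoRNAs), whose introns hold the guides of ribosomal RNA modification, had 11 decreased and 2 increased of 14 tested (median -1.14; 2 increased and 10 decreased of 14 with Rnmt cKO library 3 alone), and 8 fell more than 2-fold. Gas5 was at 350.4, 333 and 348 CPM in the controls and 71.1, 71.7 and 76.7 CPM in Rnmt cKO (log2 fold change -2.23 ± 0.06 SE, adjusted p = 1.4e-06), and Snhg8 at 104, 105 and 96.3 CPM and 24.0, 21.2 and 25.5 CPM. Snhg15 rose from 56.0, 60.3 and 58.1 CPM to 156, 161 and 174 CPM (log2 fold change 1.49 ± 0.06 SE, adjusted p = 6.1e-06) and Snhg17 rose 1.63-fold. Annotated snoRNAs themselves were 0.365, 0.342 and 0.317% of the gene counts outside the mitochondrial genome in the controls and 0.241, 0.181 and 0.240% in Rnmt cKO, a ratio of 0.646 without overlap, and 40 of 108 tested were decreased and 5 increased. Small nuclear RNAs were 0.797, 0.679 and 0.873% and 0.603, 0.505 and 0.619%. Of their 82 tested genes 16 were decreased (19.5%) and 3 increased (3.66%), both smaller shares than the 28.0% and 26.3% of all genes. Most snoRNAs lie in introns of other genes, and reads of unspliced host RNA there would be counted as snoRNA.

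Pseudogenes had 87 of 233 tested decreased and 17 increased (median -0.35), and their share of gene counts was 0.242, 0.254 and 0.267% in the controls and 0.194, 0.186 and 0.193% in Rnmt cKO. Uniquely aligned reads of a pseudogene can stem from its parent gene. Of 667 tested lncRNAs 239 were increased and 112 decreased (median 0.25). Their share of gene counts, 0.866, 0.852 and 0.881% in the controls and 1.15, 0.841 and 0.823% in Rnmt cKO, overlapped, with the high value in Rnmt cKO library 1, and with the counts of both strands the ratio of the genotypes turned from 1.08 to 0.964. Malat1, a nuclear lncRNA and 94.4% of the summed CPM of the nuclear RNAs listed, fell from 1802, 1502 and 1932 CPM to 1079, 938 and 903 CPM (log2 fold change -0.84 ± 0.11 SE, adjusted p = 4.1e-04). Firre, another nuclear RNA and chosen after its values were seen, rose (1.25 ± 0.22 SE). As shares of all gene counts, protein-coding genes and mitochondrial rRNA overlapped between the genotypes. Outside the mitochondrial genome, protein-coding genes made up 91.4, 91.3 and 91.8% in the controls and 92.1, 93.8 and 92.7% in Rnmt cKO, without overlap.

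Gene structure was compared with the direction of change over protein-coding genes. Of 230 tested genes whose longest transcript has a single exon, 93 were increased (40.4%) and 21 decreased (9.13%), with a median of 0.21, whereas genes with 4 to 6 exons had a median of -0.05 and genes with over 20 exons one of 0.06. By length of the longest transcript, the median log2 fold change was -0.12 in the shortest of 5 groups of equal size and 0.09 in the longest. Over 5 groups by GC content the medians lay between -0.02 and 0.01. Genes of one structure share pathways, and these values are descriptions.

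RPF libraries of the same genotypes served as a second readout. Their gene counts were smaller than those of total RNA, at 10661356, 6786164 and 8214622 in the controls and 8349463, 10166729 and 4123271 in Rnmt cKO. Of 11428 genes tested in RPF, 1612 were increased (14.1%) and 1796 were decreased (15.7%). The part of the smaller libraries in the numbers called was not tested. Of the cytokines 5 were increased and 1 decreased of 10 in RPF, of the chemokines and their receptors 7 and 0 of 16, and of the NF-kB list 9 and 0 of 18, against 9, 14 and 12 increased in total RNA. Immediate early genes had 23 increased and 3 decreased of 40 in RPF (median 0.85), and p53 targets 16 and 3 of 27 (median 0.62). In the T cell receptor list 21 of 39 were decreased and 4 increased, and in glycolysis and the pentose phosphate pathway 13 of 28 were decreased and 4 increased. The GIMAP and p200 families each had 7 of 8 decreased, and of the histones 37 of 53 were increased. For single genes the log2 fold changes in RPF were 3.84 for Ifng, 3.20 for Tnfsf11, 2.52 for Cdkn1a, -0.94 for Cd3g and -0.88 for Ldha.

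Over all genes, fewer were called in the smaller RPF libraries than in total RNA. Heat shock chaperones had 2 increased and 2 decreased of 17, mRNA decay regulators 2 increased and 9 decreased of 27, and hnRNP and poly(C)-binding proteins 2 increased and 5 decreased of 27. Pcbp1 had a log2 fold change of 1.83 in total RNA and -0.65 in RPF. For Hnrnpu the values were 0.90 and -0.31, for Hnrnpl, another hnRNP, 0.85 and -0.42, and for Dnajb1 0.84 and -0.46. The 2 readouts were fitted separately, and the difference between them was not tested. The rule for naming required an adjusted p below 0.05 in total RNA of all but Rnmt and the most counted members. That 269 of the 284 genes named by rule were called in total RNA therefore follows from their choice. In RPF 89 of the 284 were increased and 91 were decreased.

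**Figure D3:**
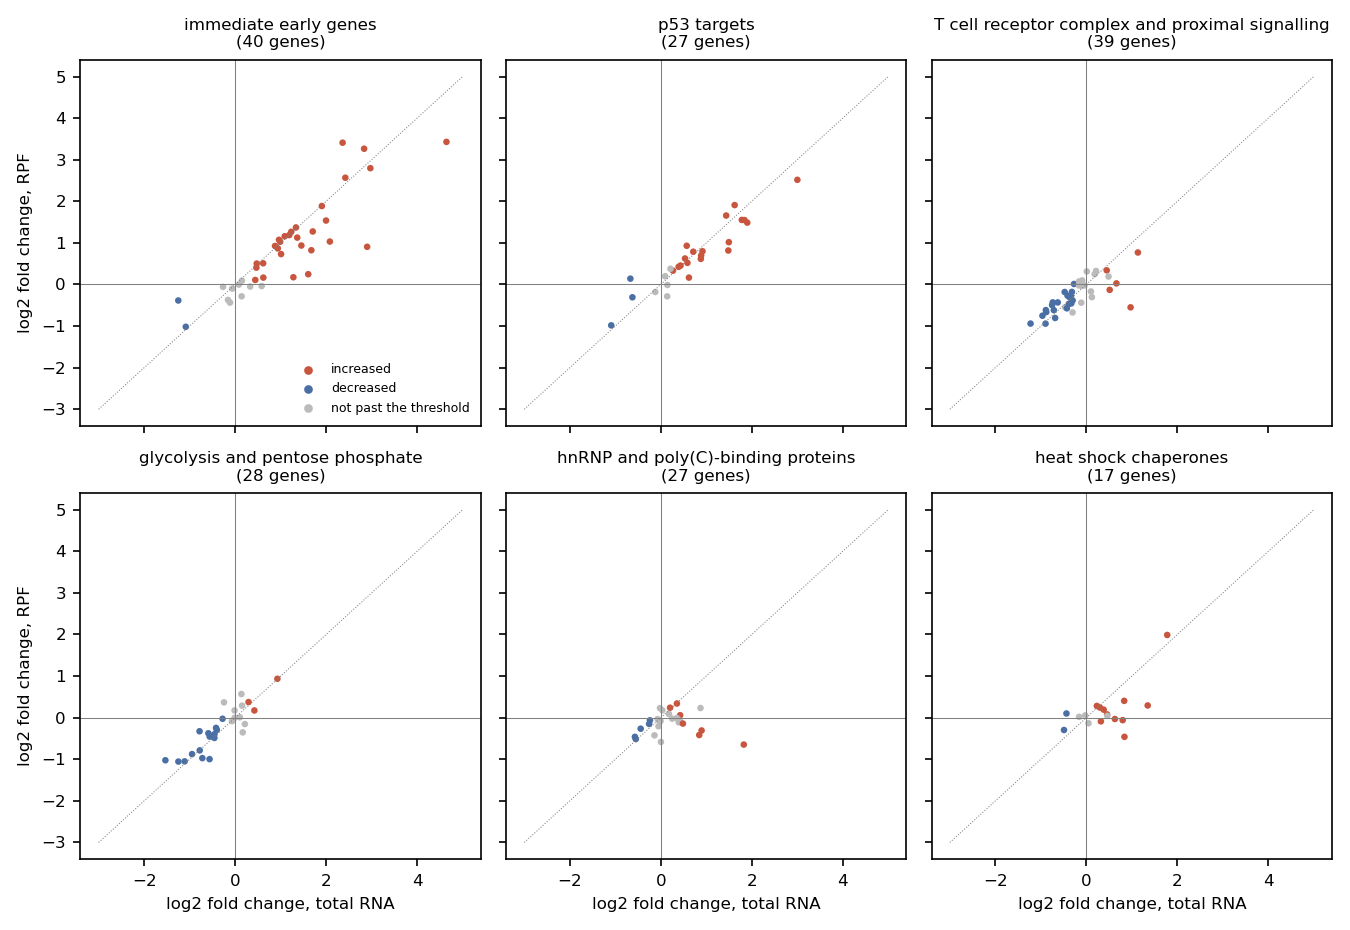
Log2 fold change (Rnmt cKO over control) in RPF against that in total RNA for the members of 6 gene lists, 1 point per gene and a line where both are equal. Most members of the T cell receptor and glycolysis lists lie near the line, whereas Pcbp1, Hnrnpu and Dnajb1 are above 0 in total RNA and below 0 in RPF.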

How the data were processed

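Cells of both genotypes were lysed with cycloheximide and total cytoplasmic RNA and RPF libraries were made with the TruSeq Ribo Profile kit. The authors trimmed reads with Cutadapt, removed reads matching rRNA and tRNA with Bowtie, checked them with FastQC and aligned read 2 alone to mm10 with STAR 2.5.2b, which counted uniquely aligned reads per gene of the GENCODE vM12 basic annotation. The deposited values are these raw counts, of which the column of the reverse strand was used. The rows of unmapped, multimapping, ambiguous and unassigned reads, 41.1 to 47.0% of all reads of a total RNA library, entered no library size. A deposited table of the authors' own comparisons, with normalized signal, log2 fold changes and p-values, was not used. Positions are those of GENCODE vM21 on GRCm38, which named 49326 of 49585 genes.

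Samples were grouped by genotype and library kind as labelled. The 3 Rnmt cKO and 3 control total RNA libraries were compared with edgeR 4.0.16 (R 4.3.3), with TMM normalization, the quasi-likelihood F test and Benjamini-Hochberg adjustment over all genes above 1 CPM in at least 3 libraries, and RPF libraries likewise on their own. "Increased" and "decreased" denote an adjusted p below 0.05. CPM are scaled by TMM. At 15079703 reads, the smallest total, 1 CPM is about 15 reads. The members, gene lists and tests were chosen with earlier results of these data known. Genes were named from a set formed by Rnmt, the 10 largest rises and falls of protein-coding genes (average log2 CPM of at least 4), the 3 largest rises and falls of each list (at least 2), all with an adjusted p below 0.05 and without overlap between genotypes, and the most counted member of each list. Of the 284 genes of this set only some are described. Other genes are said to be chosen after their values were seen. On simulated counts for 11382 genes, 96% of genes raised 2-fold and 98.0% of those lowered 2-fold were called, as were 0.0626% of unchanged genes. In the simulation all genes had the same dispersion (variability between libraries) and only 200 genes were changed. In the data 54.2% of genes were called, so these rates need not hold there. Alternatives were library sizes without TMM, TMM without the mitochondrial genome, DESeq2 1.42.0, the edgeR exact test, no filter, at least 10 counts in every library, counts of both strands, unadjusted p-values, the replicate number as a block, each library left out and, chosen after seeing the data, Rnmt cKO library 3 alone against the controls. Figures were drawn with matplotlib 3.10.9.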

Additional observations from a re-analysis of the deposited data

Results flagged for a closer look

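The share of uniquely aligned reads that were assigned to no gene was 12.4, 11.9 and 11.3% in the Rnmt cKO libraries 1, 2 and 3 and 8.97, 9.40 and 9.54% in the controls. All Rnmt cKO libraries thus stood above all controls (exact permutation test, two-sided p = 0.1, the smallest that 3 against 3 libraries allow). Reads in introns and reads between genes both belong to this share and were not separated. These reads enter no gene comparison. Multimapping reads were 25.1, 24.3 and 27.3% of all reads in Rnmt cKO and 30.1, 29.3 and 28.7% in the controls. On the opposite strand, 54706 reads of Rnmt cKO library 1 fell on more than 1 gene, against 1960 to 2784 in the controls, 5449 in Rnmt cKO library 2 and 2420 in Rnmt cKO library 3.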

How the results depend on the processing

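Without the filter on low counts 1197 genes were increased more than 2-fold, and with Rnmt cKO library 3 alone 417 were, against 681 with all libraries and the filter. That library alone reversed Csf1 (log2 fold change -1.15, adjusted p = 0.0484). When each library was left out in turn, 2303 to 3145 genes were increased and 2585 to 3151 decreased, 488 to 741 and 502 to 607 of them more than 2-fold, and of the named genes 78 to 91 were increased and 75 to 81 decreased in RPF. The ratio of shares (Rnmt cKO over control) was then 1.58 to 1.97 for histones, 0.734 to 0.771 for pseudogenes, 0.719 to 0.787 for small RNA, 0.960 to 1.15 for lncRNA, 0.877 to 0.972 for mitochondrial rRNA, 1.03 to 1.10 for mitochondrial mRNA and 1.02 to 1.05 for protein-coding genes. DESeq2 called 2981 increased and 2844 decreased, and the edgeR exact test 3026 and 3153. Same-numbered libraries of the genotypes deviated in opposite directions (correlations of -0.23, -0.17 and -0.48) and so showed no shared deviation. These correlations do not settle whether equal numbers mark a shared mouse, litter or day. With the replicate block 2455 genes were increased and 2751 decreased, of which 2442 and 2735 were also called without it, and no sample correlated best with its own number. Over the genes named and all alternatives, 4487 values kept their direction and side of the threshold, 109 fell short of it, 7 passed it anew and 1 reversed. Most of these genes were named for passing the threshold in the same data, and unadjusted p-values could lose none of them. Of the values for gene lists, 714 medians and 1641 counts stayed near those reported, and 109 medians and 119 counts moved.

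Each genotype has 3 libraries, and p-values measure the spread between them alone. The cause of the library differences in B cell markers was not tested. The files analysed here hold no amount of RNA per cell, so CPM cannot show a change that all genes share. The paper measured less mRNA per cell in activated Rnmt cKO cells. It states that falls of single genes are therefore underestimated by sequencing and rises overestimated. Counting on uniquely aligned reads leaves histone, p200 and pseudogene values less certain than others.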
